A study of Mus musculus with 2 samples.

Results

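Dapk2, Pknox2, Ifitm6, Ptges, Tesc, Cmah, Slc17a9, Gpr84, Cd80 and Acvrl1 are 10 of the 32285 genes counted in 2 single-cell libraries of mouse bone marrow. They were picked because they lead the neutrophils of the control library, so their difference between the libraries in neutrophils chose them and is given here as a description with no test. All 10 were measured by 1 row each in the files, and each reached the minimum of 100 UMIs (unique molecular identifiers, counted as molecules) set over the neutrophils of both libraries.

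The study sorted Kit-positive CD45.2-positive bone marrow cells 10 weeks after transplantation and profiled them by CITE-seq, which counts messenger RNA and antibody-bound tags in the same droplet. The control group is 1 library of such cells, and the other group is 1 library labelled as Utx-deleted cells of the same sort and time. The labels do not give the driver or extent of the deletion, the strain, the sex or age of donors and hosts, or how many animals were pooled. UTX is the histone H3 lysine 27 demethylase encoded by Kdm6a, and its transcript was not depleted in neutrophils, with 91.0 CPM (UMIs of the gene per 1000000 UMIs) in the control library and 91.4 CPM in the other, so 3-prime counts do not check the label. Each group being 1 library, no replicate exists and the conditions could not be tested against each other. All intervals are exact (Poisson for levels, binomial for ratios, Clopper-Pearson for shares) at 95%, and they hold counting error alone.

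Neutrophils mature in the marrow from Elane-expressing progenitors that fill azurophil granules, through dividing cells that make specific granule proteins such as lactoferrin (Ltf), to non-dividing cells that carry gelatinase and chemotaxis genes. The 10 genes have different known roles. Dapk2, Tesc and Pknox2 act inside the cell in signalling and transcription. Cd80, Gpr84, Acvrl1 and Ifitm6 encode membrane proteins, among them 2 receptors and 1 ligand. Ptges, Cmah and Slc17a9 make or store lipid mediators, sialic acids and nucleotides.

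Upstream sequence is shown for Dapk2, Tesc and Cd80, the 3 genes with the largest difference between the libraries, and for Ifitm6, the gene with the smallest. Each line is the 250 bases before the RefSeq transcription start (GRCm38.p6), read 5′ to 3′ on the gene's strand. Capitals mark matches on either strand to the GC box (GGGCGG), the RUNX motif (TGTGGT), the AP-1 motif (TGANTCA) or the TATA box (TATAAA), and no match overlapped another motif's.
Dapk2 (chr9:66157976-66158225, plus strand): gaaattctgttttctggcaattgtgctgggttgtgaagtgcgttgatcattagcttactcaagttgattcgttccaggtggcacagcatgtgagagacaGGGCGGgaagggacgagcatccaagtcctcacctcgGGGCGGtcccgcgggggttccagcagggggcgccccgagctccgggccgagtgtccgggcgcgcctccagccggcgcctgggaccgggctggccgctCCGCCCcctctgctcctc
Tesc (chr5:118027493-118027742, plus strand): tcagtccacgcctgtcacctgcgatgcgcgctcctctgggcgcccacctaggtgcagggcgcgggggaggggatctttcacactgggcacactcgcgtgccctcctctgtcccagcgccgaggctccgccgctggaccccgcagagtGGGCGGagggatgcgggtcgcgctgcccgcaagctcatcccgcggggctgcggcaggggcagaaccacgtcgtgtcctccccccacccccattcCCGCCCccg
Cd80 (chr16:38458683-38458932, plus strand): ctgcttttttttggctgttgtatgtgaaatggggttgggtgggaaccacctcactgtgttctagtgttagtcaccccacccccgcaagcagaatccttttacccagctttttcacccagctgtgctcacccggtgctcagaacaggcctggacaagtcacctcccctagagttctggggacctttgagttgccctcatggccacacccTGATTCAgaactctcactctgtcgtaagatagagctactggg
Ifitm6 (chr7:141016893-141017142, minus strand): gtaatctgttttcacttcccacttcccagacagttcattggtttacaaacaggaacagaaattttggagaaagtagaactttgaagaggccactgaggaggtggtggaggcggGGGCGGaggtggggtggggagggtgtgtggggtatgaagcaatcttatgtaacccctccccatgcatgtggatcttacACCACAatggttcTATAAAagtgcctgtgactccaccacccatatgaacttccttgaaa

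The RefSeq table held upstream sequence for 7 of the 10 genes, with 2 starts for Cmah. The Dapk2 and Tesc stretches are rich in CpG, the dinucleotide that carries DNA methylation in mammals, with 20 and 26 CpG at 65.2% and 73.2% GC. Across all 32851 upstream stretches the median was 6 CpG and 52.4% GC, and 17.9% and 9.59% of them held at least as many CpG as Dapk2 and Tesc. Cd80 and Ifitm6 held 3 and 2 CpG. The GC box was found in 4 of the 7 genes (Dapk2, Ifitm6, Ptges and Tesc) and in 32.7% of all stretches. The C/EBP motif (TTGCNNAA), named for a factor family that drives granulocyte genes, was found in 0 of the 7 genes and in 9.56% of all stretches. The letters GAGGAA, a PU.1 or ETS core, were found in 1 of the 7 (Ptges) and in 23.3% of all. The RUNX motif and the TATA box were each found in Ifitm6 alone (14.0% and 12.4% of all), and the AP-1 motif in Cd80 alone (6.75% of all). The RefSeq starts of Dapk2 and Tesc lie 3 and 0 bases from the gene's outermost start in GENCODE M21, whereas those of Ifitm6 and Cd80 lie 1032 and 3372 bases inside it.

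The control library kept 7011 cells with a median of 12367 UMIs and the library labelled Utx-deleted 7206 cells with a median of 11816.5 UMIs (17 cell barcodes occurred in both libraries). Clusters of cells were built without the 10 genes and named from marker lists. Maturing-neutrophil-like clusters made up 63.7% and 72.4% of kept cells although the sort was for Kit, with 4466 control cells (47439605 UMIs) and 5219 cells of the other library (62442393 UMIs). These cells clustered by library. Clusters 1, 3, 8, 9 and 16 were mostly control cells, clusters 0, 2, 4, 6 and 18 were mostly cells of the other library, and clusters 11 and 19 were mixed. Clusters 2, 8, 11 and 16 had histone or mitotic genes among their 10 leading genes by fold, and cluster 19 was led by interferon-response genes such as Rsad2 and Isg15. Each library also held 2 hashtag populations, suspensions labelled with different antibodies before pooling. The labels do not say what the hashtags mark, so the values per hashtag describe the spread inside a library and are not replicates.

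In maturing-neutrophil-like cells the library labelled Utx-deleted had lower levels of all 10 genes, and of 9 by at least 2-fold, the exception being Ifitm6. Of the 10661 genes with at least 100 UMIs, 3.72% were at least 2-fold lower and 1.57% at least 2-fold higher. The median log2 ratio (the library labelled Utx-deleted over control, with 1 UMI added to each sum) was -1.69 over the 10 genes and -0.039 over all genes tested. The ratios ran from -5.95 for Dapk2 to -0.81 for Ifitm6. Ptges at -1.03 was the nearest past 2-fold, and Ifitm6 was the one short of it. Among all 10661 genes, ordered from the lowest ratio, Dapk2, Tesc and Cd80 had ranks 4, 12 and 33. The same difference chose the genes, so the ranks are description only. Pknox2 and Ptges came within 2-fold under some of the alternatives, with ratios up to -0.88 with neutrophils drawn in another way and up to -0.82 in hashtag 2 alone.

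**Figure D1:**
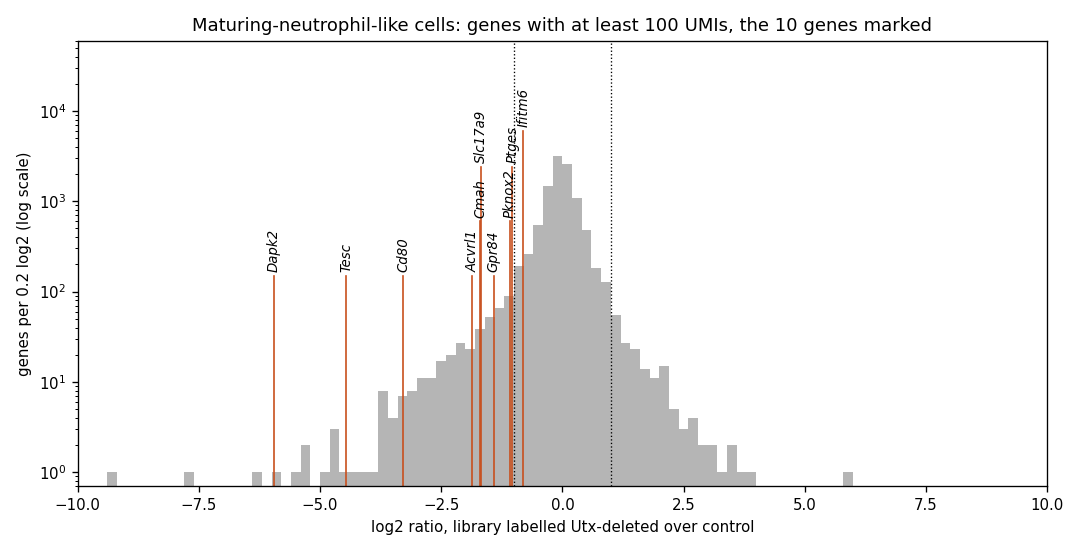
Histogram of the log2 ratio of the library labelled Utx-deleted over control for the 10661 genes with at least 100 UMIs in maturing-neutrophil-like cells (y axis: genes per 0.2 log2, log scale), with the 10 genes marked by lines and 2-fold by dotted lines. Dapk2, Tesc and Cd80 stand in the left tail, and Ifitm6 at -0.81 lies inside 2-fold.

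The values of the hashtag populations did not overlap between the libraries for any of the 10 genes, with both control values above both others. That order was common, at 41.8% of all genes tested, so it says little about these 10. Inside a library the hashtags differed by less than 2-fold for all 10, with log2 ratios of hashtag 2 over hashtag 1 from -0.24 to 0.27 in the control library and from -0.29 to 0.57 in the other. Few genes of any kind differed 2-fold between hashtags, with 0.138% of genes in the control library and 0.198% in the other. Taken by hashtag, 9 of the 10 genes were at least 2-fold lower among hashtag 1 cells (2.96% of all genes) and 8 of the 10 among hashtag 2 cells (3.51%). Sums of markers of several other cell types in the neutrophils also differed between the libraries. The 7 monocyte markers summed to 837 and 854 CPM in the control hashtags and 663 and 661 CPM in the other library, with none at 0. The 7 macrophage markers summed to 20.3 and 25.03 CPM against 37.7 and 32.3 CPM, with none at 0. Of the 6 macrophage markers with at least 20 UMIs, 5 were lower in the library labelled Utx-deleted, 4 of them by 2-fold, and 1 was 2-fold higher. The 7 T or NK markers summed to 21.4 and 21.7 CPM against 8.44 and 7.61 CPM, with 1 at 0 in the library labelled Utx-deleted. The 6 endothelial markers summed to 7.96 and 8.43 CPM against 4.59 and 4.34 CPM, with Cdh5 and Cldn5 at 0 in both libraries. Markers of 3 classes in which some of the 10 genes are also described were lower too. The 7 erythroid markers summed to 2.38 and 3.19 CPM against 0.672 and 0.557 CPM, with 3 at 0 in the library labelled Utx-deleted. The 7 basophil or mast cell progenitor markers summed to 6.91 and 6.09 CPM against 1.98 and 2.30 CPM, with 1 at 0 in control. The 6 megakaryocyte-progenitor markers summed to 4.14 and 3.45 CPM against 1.76 and 1.30 CPM, with none at 0. The part of these markers in the 10 genes' levels was not tested.

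**Figure D2:**
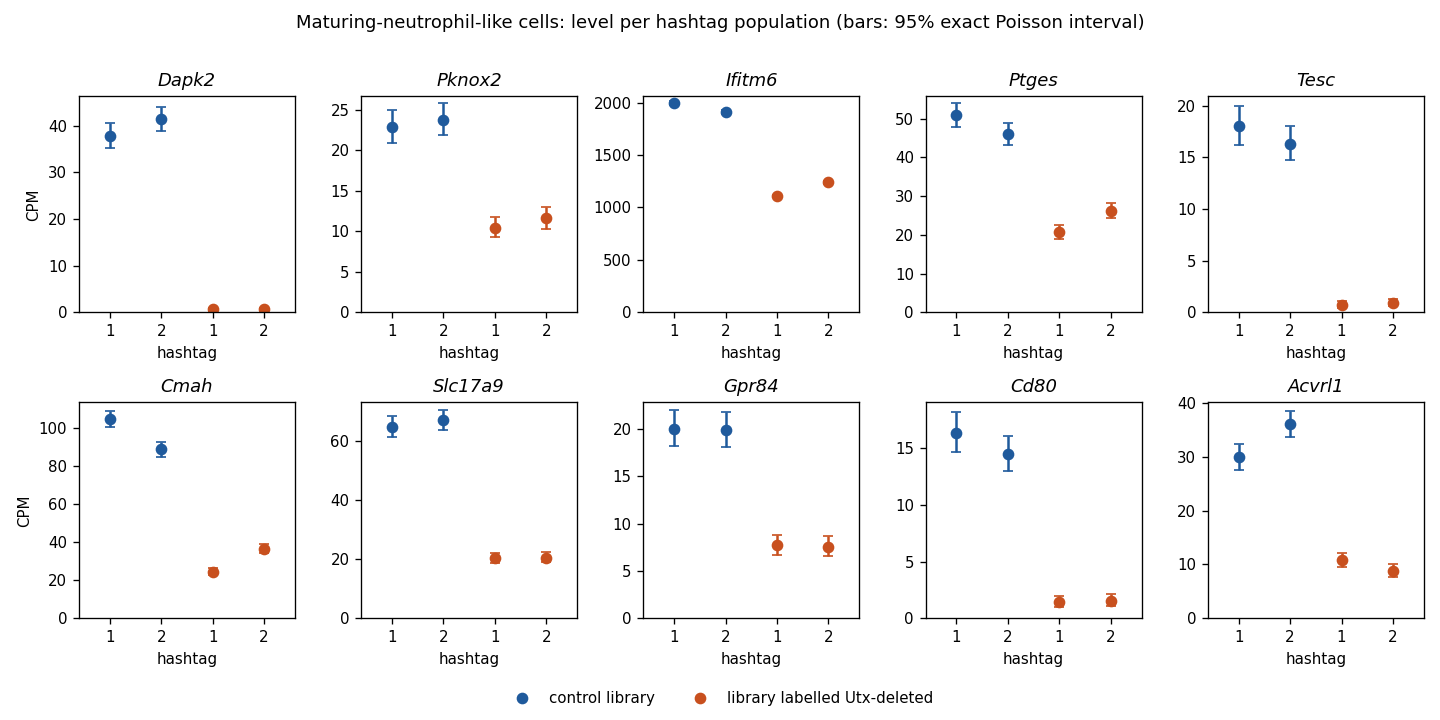
CPM of each gene (y axis, from 0) in the maturing-neutrophil-like cells of hashtags 1 and 2 in the control library (blue) and the library labelled Utx-deleted (orange); points are summed counts and bars are 95% exact Poisson intervals. For each of the 10 genes both blue points lie above both orange points.

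Maturation was followed in 5 ranges of cells cut by marker levels, which are ranges of a score and not cell types. They are Elane-high progenitors (358 control cells and 538 cells of the other library), Fcnb-high cells (1090 and 555), cycling Fcnb-low cells (1118 and 1297), non-cycling Retnlg-low cells (1389 and 1932) and Retnlg-high cells (1543 and 1602). Fcnb encodes ficolin B of early granules and Retnlg a secreted protein of late neutrophils. The ranges did not use the antibody tags. From the first range to the last the median Kit tag went from 201 to 13 UMIs per cell in the control library and from 213 to 8 in the other, and the Gr1 tag from 30 to 2655 and from 31 to 2458.5. The Gr1 tag was higher in each range than in the one before, and the Kit tag lower, except for 21 and 23 UMIs in the Fcnb-high and cycling cells of the library labelled Utx-deleted. The CD11b tag did not follow the order, with its highest median in cycling cells of the control library (389.5) and in Fcnb-high cells of the other (347). Many cells lay near a limit, with the Fcnb level of 629 control cells and 489 cells of the other library within 25% of it.

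More of the 10 genes were 2-fold lower in the ranges after the progenitors than in the progenitors. The later ranges consist mostly of the neutrophils in which the genes were picked, so this order is description only. Fewer of the 10 genes also had enough UMIs for a ratio in the progenitors. Among Elane-high progenitors 1 of the 5 genes with at least 20 UMIs was 2-fold lower (Gpr84, from 20 and 8 UMIs; 0.976% of all genes tested), and the median log2 ratio was -0.024. The shares of all genes took genes with at least 100 UMIs, a higher floor than the 20 of the 10 genes. In Fcnb-high cells 6 of 10 were 2-fold lower (2.46% of genes), in cycling Fcnb-low cells 9 (2.63%), in non-cycling Retnlg-low cells 8 (2.62%) and in Retnlg-high cells 9 (3.8%). After thinning to 2000 UMIs per cell, Pknox2 (-0.58) and Ptges (-0.84) in cycling cells were no longer past 2-fold. Cd80 and Acvrl1 then had too few UMIs for a ratio in cycling and in Fcnb-high cells. Cd80 is among the 6 genes counted in Fcnb-high cells. None of the genes counted was 2-fold higher in any of the 5 ranges, where 0.905%, 0.71%, 0.937%, 1% and 1.01% of all genes were. The median ratios after the progenitors were -1.27, -1.59, -1.57 and -1.96, while the medians over all genes lay between -0.101 and -0.053. The libraries differed in how their cells spread over the ranges, with 19.8% of control lineage cells and 9.37% of the other library's being Fcnb-high. With the same weight for each range in both libraries the median over the 10 genes in neutrophils was -1.70. The share of all genes past 2-fold was not computed with these weights, so no count is given. When cells were instead split into 5 equal bins of a maturation index (Ltf, Camp, Ngp, Lcn2, Retnlg and Mmp8 minus Elane, Mpo, Prtn3 and Ctsg), 7 to 9 of the 10 genes were 2-fold lower in each bin, where 2.6%, 2.56%, 2.66%, 3.15% and 3.21% of all genes were.

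**Figure D3:**
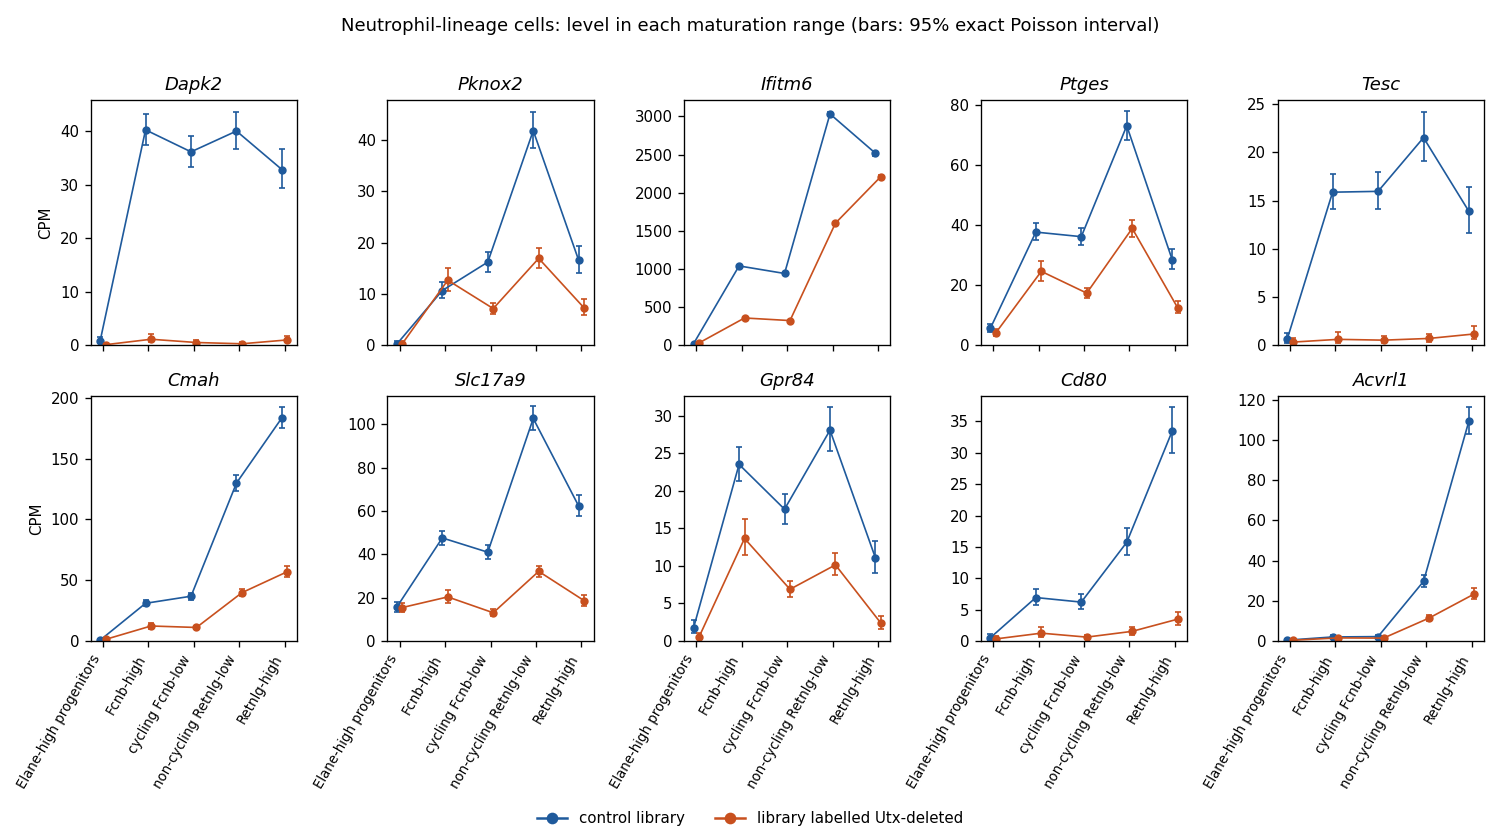
CPM of each gene (y axis, from 0) across the 5 maturation ranges (x axis) in the control library (blue) and the library labelled Utx-deleted (orange), with 95% exact Poisson intervals. In the Fcnb-high range the intervals of the ratio lie below 0 for 8 genes, and those of Pknox2 and Acvrl1 span 0.

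Dapk2 (ENSMUSG00000032380; chromosome 9, 66158223 to 66272242, plus strand, 12 exons) encodes a calcium- and calmodulin-dependent death-associated protein kinase known from granulocytic differentiation. Control neutrophils held 37.9 and 41.4 CPM in hashtags 1 and 2, and those of the library labelled Utx-deleted 0.635 and 0.594 CPM. The control populations were high and alike, and the others were near zero, with 1878 UMIs against 39 and a log2 ratio of -5.95 (interval -6.48 to -5.53). A UMI of Dapk2 was found in 28.3% of control neutrophils (26.9% to 29.6%) and in 0.594% of the others (0.404% to 0.842%). Neutrophils were also thinned to 2000 UMIs each, which removes differences in depth and left out 80 control cells and 37 cells of the other library that were shallower. The thinned shares were 6.52% and 0.0772%. In the control library Dapk2 appeared with the Fcnb-high range, at 0.804, 40.3, 36.2, 40.1 and 32.9 CPM from Elane-high progenitors to Retnlg-high cells. In the other library it stayed at 0.138 to 1.15 CPM in all 5 ranges.

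Tesc (ENSMUSG00000029359; chromosome 5, 118027743 to 118061878, plus strand, 8 exons) encodes tescalcin, a calcium-binding EF-hand protein. Its levels were 18.0 and 16.3 CPM in the control hashtags and 0.672 and 0.891 CPM in the other library. As with Dapk2, the control values were high and the others near zero, with 799 and 47 UMIs (log2 ratio -4.46, -4.94 to -4.06). Thinned shares of cells were 3.06% and 0.154%. Along the ranges control cells held 0.625, 15.9, 15.9, 21.5 and 13.9 CPM, highest in the non-cycling Retnlg-low range, against 0.344 to 1.19 CPM in the other library.

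Pknox2 (ENSMUSG00000035934; chromosome 9, 36890982 to 37147407, minus strand, 13 exons) encodes a homeobox transcription factor of the TALE class. Control neutrophils held 22.9 and 23.8 CPM and the others 10.4 and 11.6 CPM. The groups were apart but by little more than 2-fold, with 1084 and 674 UMIs (log2 ratio -1.08, -1.22 to -0.94). Pknox2 was at its highest in non-cycling Retnlg-low cells of both libraries, with 41.8 and 17.0 CPM. In Fcnb-high cells its ratio was 0.25 with an interval that spans 0 (-0.09 to 0.58), and after thinning it was -0.19. It was concentrated in few cells. In non-cycling Retnlg-low control cells 17.7% had a UMI, against 31.4% had the same UMIs been spread evenly by depth, and the highest cell held 17 UMIs.

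Cd80 (ENSMUSG00000075122; chromosome 16, 38455561 to 38496335, plus strand, 7 exons) encodes a surface ligand of CD28 and CTLA-4 on T cells. It stood at 16.3 and 14.4 CPM in the control hashtags and at 1.46 and 1.56 CPM in the others. All control values were thus high and all others low, with 724 and 97 UMIs (log2 ratio -3.28, -3.62 to -2.99). Thinned shares were 3.56% and 0.347%. In both libraries Cd80 was highest in Retnlg-high cells, 33.5 CPM in control and 3.49 CPM in the other. Relative to cycling cells that late level was higher by 2.42 on the log2 scale in control (2.11 to 2.76) and 2.41 in the other library (1.60 to 3.42). In Elane-high progenitors, Fcnb-high and cycling cells control held 0.536, 6.94 and 6.21 CPM. The other library held 0.344, 1.26 and 0.630 CPM there, from 5, 12 and 15 UMIs, so likeness of the whole course cannot be read.

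Gpr84 (ENSMUSG00000063234; chromosome 15, 103308235 to 103310612, minus strand, 2 exons) encodes a receptor for medium-chain fatty acids on myeloid cells. Control populations held 20.01 and 19.9 CPM and the others 7.70 and 7.57 CPM. The hashtags of each library were nearly equal, and the pooled 949 and 466 UMIs gave a log2 ratio of -1.42 (-1.59 to -1.26). Unlike Cd80, Gpr84 was low in Retnlg-high cells of both libraries, with 11.1 and 2.38 CPM. Its highest range was the non-cycling Retnlg-low one in control (28.1 CPM) and the Fcnb-high one in the other library (13.6 CPM). Gpr84 UMIs were spread evenly over cells, with observed shares 0.91 to 1.03 times those of an even spread in the ranges measured.

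Acvrl1 (ENSMUSG00000000530; chromosome 15, 101128522 to 101145336, plus strand, 12 exons) encodes ALK1, a type I receptor of the BMP and TGF-beta family best known from endothelium. Control neutrophils held 29.9 and 36.1 CPM and the others 10.8 and 8.80 CPM. The hashtags differed in opposite directions inside the libraries, and still did not overlap between them. The pooled counts were 1545 and 560 UMIs (log2 ratio -1.86, -2.00 to -1.72). It was a late transcript, with 2.04 and 2.22 CPM in Fcnb-high and cycling control cells, 29.7 CPM in non-cycling Retnlg-low cells and 110 CPM in Retnlg-high cells. The library labelled Utx-deleted had 1.57, 1.47, 11.4 and 23.5 CPM in the same order, so the distance was widest at the end, where the log2 ratio was -2.22 (-2.41 to -2.04). In Fcnb-high and cycling cells the intervals of its ratio spanned 0. In Retnlg-high cells 34.5% of control cells and 8.68% of the others had a UMI.

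Ifitm6 (ENSMUSG00000059108; chromosome 7, 141015699 to 141017924, minus strand, 3 exons) encodes a member of the interferon-induced transmembrane family, whose members share sequence, so reads that fit several of them make its count less certain. Control populations held 1993 and 1910 CPM and the others 1109 and 1238 CPM. The groups did not overlap, and the 91964 and 69160 UMIs gave a log2 ratio of -0.81 (-0.82 to -0.79). Nearly all control neutrophils (98.4%) and 88.2% of the others had a UMI. The ratio varied along maturation. In Elane-high progenitors Ifitm6 stood at 23.9 CPM in control and 33.2 CPM in the other library (log2 ratio 0.47), but the hashtags overlapped (11.1 and 21.6 CPM against 18.0 and 33.6 CPM), and both counts were below what neutrophil RNA in the ratio of Camp, Ngp and Ltf would bring. Cells of hashtags 1 and 2 held 69 and 98 of the 268 control UMIs there, and 103 and 254 of the 482 in the other library. The remaining UMIs were in cells with both hashtags or neither. Ifitm6 was lower by 1.53 on the log2 scale in both Fcnb-high and cycling cells of the library labelled Utx-deleted, and close in Retnlg-high cells (2517 and 2212 CPM, log2 ratio -0.19). In Fcnb-high cells of the library labelled Utx-deleted 66.1% had a UMI, against 98.2% for an even spread of the same UMIs, whereas in the control library the observed and even shares were 94.2% and 99.7%.

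Ptges (ENSMUSG00000050737; chromosome 2, 30889471 to 30929863, minus strand, 3 exons) encodes the inducible synthase that makes prostaglandin E2. It stood at 50.8 and 46.0 CPM in the control hashtags and 20.7 and 26.1 CPM in the others. The lowest control value was above the highest of the other library, and the pooled 2336 and 1504 UMIs gave a log2 ratio of -1.03 (-1.13 to -0.94). Like Pknox2 it was highest in non-cycling Retnlg-low cells, at 73.2 and 39.0 CPM. Its ratio ran from -0.45 in progenitors (interval -0.98 to 0.08) to -1.18 in Retnlg-high cells.

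Cmah (ENSMUSG00000016756; chromosome 13, 24327404 to 24477377, plus strand, 18 exons) encodes the hydroxylase that turns CMP-N-acetylneuraminic acid into the N-glycolyl form of sialic acid, an enzyme that humans have lost. Levels were 105 and 88.6 CPM in the control hashtags and 24.4 and 36.4 CPM in the others. Cmah had the widest gap between hashtags of the 10 genes, the one in the library with the deletion label, and the groups still did not overlap. Pooled, 4508 and 1831 UMIs gave a log2 ratio of -1.70 (-1.78 to -1.62). It was highest in Retnlg-high cells of both libraries, at 0.715, 31.0, 36.9, 130 and 183 CPM along the ranges in control and 1.38, 12.4, 11.2, 39.8 and 57.0 CPM in the other. The step from cycling to Retnlg-high cells was 2.31 on the log2 scale in control and 2.35 in the other.

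Slc17a9 (ENSMUSG00000023393; chromosome 2, 180725263 to 180742280, plus strand, 13 exons) encodes the vesicular nucleotide transporter, which loads ATP into secretory vesicles. Control populations held 65.0 and 67.2 CPM and the others 20.3 and 20.6 CPM. The hashtags of each library were nearly equal, and 3141 and 1283 UMIs gave a log2 ratio of -1.69 (-1.78 to -1.59). In Elane-high progenitors the libraries were alike, at 15.7 and 15.5 CPM, and the log2 ratio was -0.02 (-0.31 to 0.27). In the later ranges control cells held 47.6, 41.0, 103 and 62.3 CPM, and the other library 20.4, 13.1, 32.2 and 18.6 CPM, which is nearer to its progenitor level.

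Detection of several of the genes in the same cell was examined in cells thinned to 2000 UMIs, leaving out Ifitm6, the most abundant of the 10. Of these cells, 50.3% of control neutrophils and 18.2% of the others had a UMI of at least 1 of the other 9 genes. For each of the 36 pairs of these 9 genes, the control cells with both genes were counted, so that a cell with 3 genes enters several pairs. These counts summed to 350 in the Retnlg-high range, where 364 were expected from independent shares, and to 416 in the non-cycling Retnlg-low range, where 389 were expected. Single pairs, on small counts, ran from 0 to 2.01 times the expectation in the first range and from 0.173 to 2.04 times in the second. The most of these 9 genes seen in 1 thinned cell was 4 in the control library and 3 in the other. Without thinning, each of the 10 genes except Gpr84 was in fewer cells than an even spread gives in every range measured. Observed shares of Pknox2, Cmah and Acvrl1 were at most 0.76 times the even share in any range. Those of Ifitm6 ran from 0.41 to 0.99 times it, and Gpr84 was closest to even.

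Because neutrophil clusters followed the library, the cells that fell into clusters led by the other library were examined. In clusters where at least 90% of cells, adjusted for library size, came from the control library, the library labelled Utx-deleted had 169 cells, with 2.89 CPM of Dapk2 (5 UMIs, interval 0.937 to 6.73), 1.15 CPM of Tesc (2 UMIs), 39.2 CPM of Cmah and 21.4 CPM of Slc17a9. The 161 control cells in clusters led by the library labelled Utx-deleted held 29.5 CPM of Dapk2 (42 UMIs, 21.2 to 39.8), 16.8 CPM of Tesc (24 UMIs), 89.1 CPM of Cmah and 57.6 CPM of Slc17a9. In clusters led by their own library, control cells held 37.8, 17.5, 84.3 and 60.2 CPM of these 4 genes in the same order, and those of the other library 0.543, 0.761, 29.7 and 20.9 CPM. The 169 cells were thus above their library's own clusters in Dapk2, and below the 161 control cells in all 4 genes. For Cmah their interval (30.5 to 49.8 CPM) overlapped that of their library's own clusters (28.3 to 31.2 CPM), and no order can be read. Their median of Retnlg plus Mmp8 was 25.7 per 10000 UMIs, against 2.14 in those clusters. For Pknox2 and Acvrl1 the intervals of the 169 and the 161 cells overlapped (15.01 against 23.2 CPM and 9.81 against 16.1 CPM), and no order can be read.

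**Figure D4:**
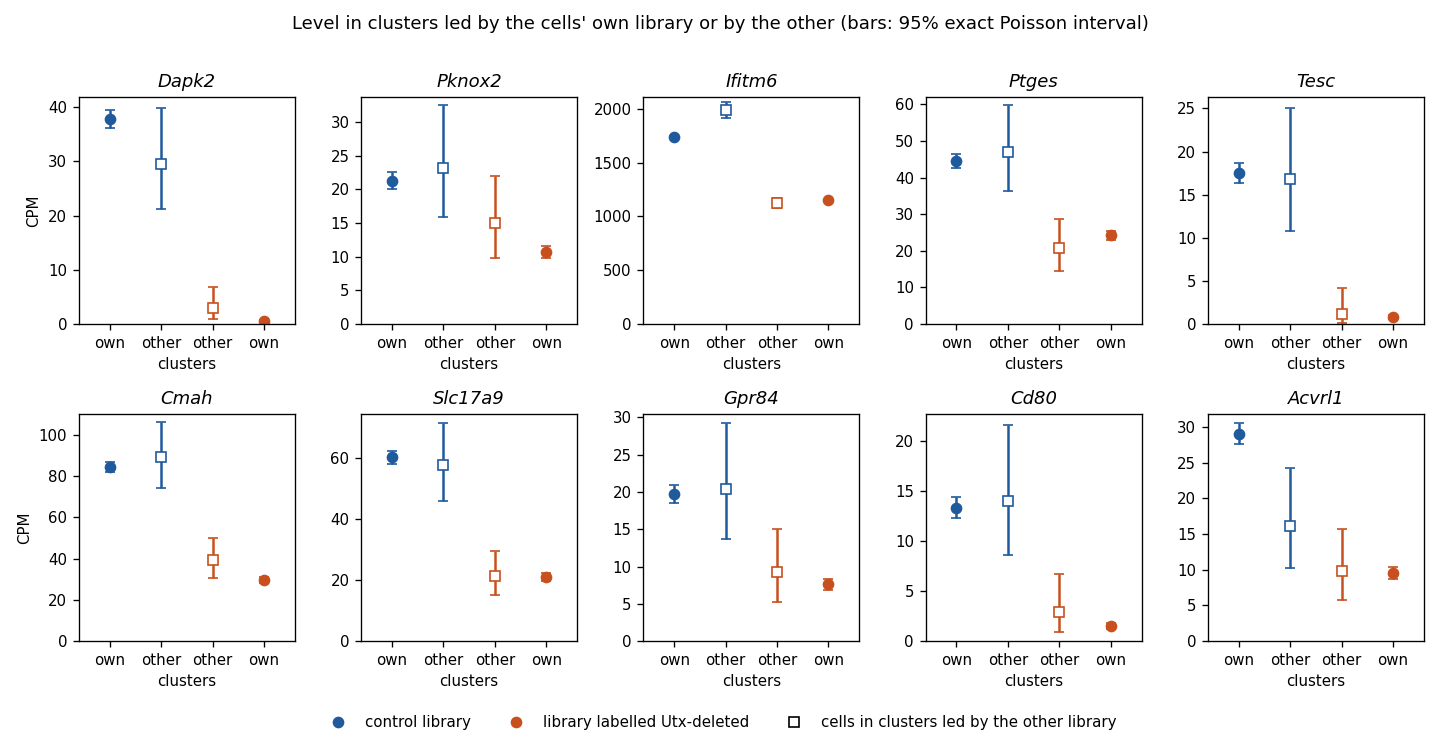
CPM of each gene (y axis, from 0) in neutrophil-lineage cells of the control library (blue) and the library labelled Utx-deleted (orange), split by whether they fell into clusters led by their own library (filled circles) or by the other (open squares), with 95% exact Poisson intervals. Dapk2 stands at 29.5 CPM in control cells of the other library's clusters and at 2.89 CPM in the reverse case.

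Outside the neutrophil lineage the 10 genes differed in both directions. In these cells 4.16% of 12415 genes tested were at least 2-fold lower and 2.51% at least 2-fold higher. Dapk2 (log2 ratio -1.88, -2.43 to -1.41) and Cmah (-1.23, -1.49 to -0.99) were lower by more than 2-fold, Pknox2 was higher by more than 2-fold (1.35, from 24 and 57 UMIs), and the other 7 were within 2-fold. These sums pool classes of unequal size in the libraries, among them megakaryocyte-progenitor-like cells (278 in control and 107 in the other library), monocyte-progenitor-like cells (286 and 694) and erythroid-like cells (46 and 5). Within classes the log2 ratio of Dapk2 was -0.54 in HSC/MPP-like cells (21 and 7 UMIs) and -0.69 in megakaryocyte-progenitor-like cells, and its level in the class named basophil-or-mast-cell-progenitor-like was 18.0 CPM in 99 control cells and 5.63 CPM in 65 cells of the other library. Counts within classes were small. The shares of all genes given beside them took genes with at least 100 UMIs, against 20 for the 10 genes. Genes with few UMIs pass 2-fold more easily, so the 2 are not alike. Of the 6 genes with at least 20 UMIs in HSC/MPP-like cells (stem cells and multipotent progenitors), 1 was 2-fold lower (Cmah; 3.16% of all genes) and 1 higher (Tesc, from 9 and 11 UMIs; 1.48%). Of 8 in monocyte-progenitor-like cells, 1 was lower (Tesc, from 13 and 8 UMIs; 1.08%) and 1 higher (Pknox2, from 3 and 34 UMIs; 1.59%). Of 5 in megakaryocyte-progenitor-like cells, 1 was lower (Slc17a9; 1.63%) and 0 higher (1.31%). Free neutrophil RNA in droplets can give UMIs in other cells, so each count was set against the count expected if the Camp, Ngp and Ltf UMIs of that class brought the 10 genes along in the ratio seen in neutrophils. Levels outside neutrophils are given as above that expectation only where the observed interval excluded it.

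Dapk2 was expressed outside neutrophils in both libraries. Megakaryocyte-progenitor-like cells held 59 UMIs in control (9.49 CPM, where neutrophil RNA would bring 0.871 CPM) and 18 in the library labelled Utx-deleted (5.65 CPM, where it would bring 0.0397 CPM). T-or-NK-cell-like cells held 9 and 7 UMIs in 33 and 37 cells (31.7 and 23.2 CPM). Another class above that expectation, basophil-or-mast-cell-progenitor-like, gave 34 and 6 UMIs. Monocyte-progenitor-like cells were at the neutrophil RNA level, with 1.249 and 0.0500 CPM against 1.238 and 0.0461 CPM. The log2 ratio of Dapk2 was -0.69 in megakaryocyte-progenitor-like cells (-1.60 to 0.03). Erythroid-like cells of the control library held 27 UMIs in 46 cells (14.2 CPM), and with 5 such cells in the other library no comparison was made. Tesc likewise was present at 3.86 and 5.02 CPM in megakaryocyte-progenitor-like cells (24 and 16 UMIs, log2 ratio 0.41, -0.63 to 1.35).

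Slc17a9 was close between the libraries in several progenitor classes. HSC/MPP-like cells held 16.3 and 17.0 CPM and monocyte-progenitor-like cells 13.1 and 14.9 CPM, where neutrophil RNA would bring 0.670 and 0.623 CPM to the first class and 2.07 and 1.52 CPM to the second. Megakaryocyte-progenitor-like cells differed, with 12.7 and 5.65 CPM (79 and 18 UMIs, log2 ratio -1.11, -2.00 to -0.42). Cmah in HSC/MPP-like cells was 16.9 CPM in control and 1.75 CPM in the other library (275 and 15 UMIs, log2 ratio -3.18, -4.13 to -2.53). That control count rested on few cells, since 39 of 581 cells had a UMI and the top 20 barcodes held 92.4% of the UMIs, up to 43 in 1 cell. Monocyte-progenitor-like cells held Cmah at 3.12 CPM in control, near the 2.97 CPM that neutrophil RNA would bring, and at 3.75 CPM in the other library, where it would bring 2.17 CPM. T-or-NK-cell-like cells held 127 CPM in control (36 UMIs in 16 of 33 cells) and 73.0 CPM in the other library (22 UMIs in 5 of 37 cells, 13 of them in 1 cell).

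Acvrl1 and Cd80 stood out in dendritic-cell-like cells, a type whose textbook surface proteins include CD80. Acvrl1 was 65.8 CPM in the 24 control cells (27 UMIs) and 22.4 CPM in the 33 cells of the other library (13 UMIs), and Cd80 21.9 and 8.62 CPM (9 and 5 UMIs), all above the neutrophil RNA expectation. These counts are small, and no ratio was computed. Ifitm6 in HSC/MPP-like cells gave 416 UMIs in control, above the 319 of the neutrophil RNA expectation, and 273 against 288 in the other library. The control count rested on few cells, with UMIs in 142 of 581 cells and 67.3% of them in the top 20 barcodes. In neutrophil-progenitor-like cells it was below that expectation in both, with 268 UMIs against 349 and 482 against 744. Gpr84 gave at most 20 UMIs in any of the named classes outside maturing neutrophils.

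**Figure D5:**
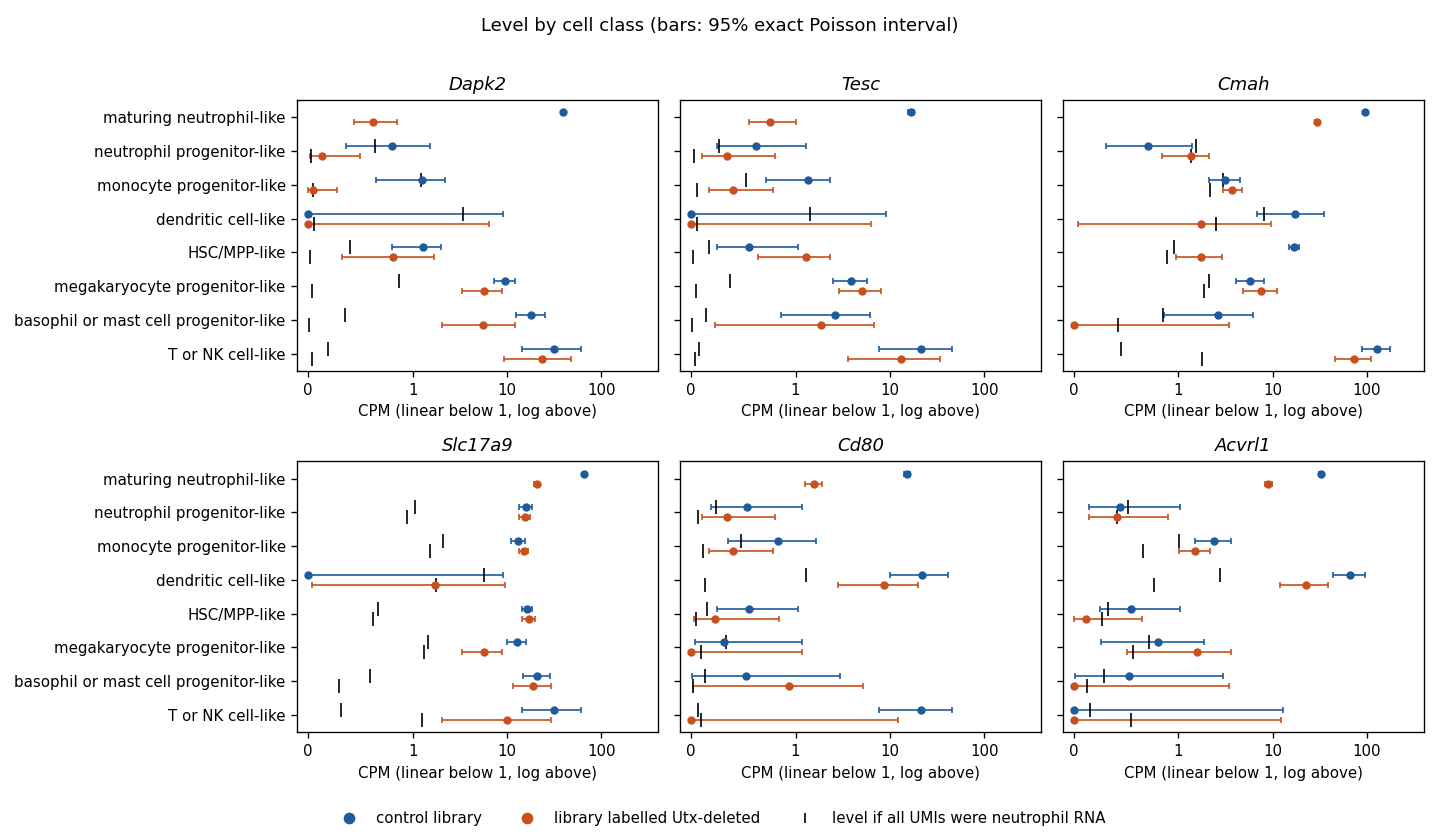
CPM (x axis, linear below 1 and log above) of 6 genes in 8 cell classes of the control library (blue) and the library labelled Utx-deleted (orange), with 95% exact Poisson intervals; black ticks give the level that free neutrophil RNA alone would bring. In megakaryocyte-progenitor-like cells Dapk2 stands at 9.49 and 5.65 CPM and Tesc at 3.86 and 5.02 CPM.

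Genes of the same families and pathways were taken from lists of 92 relatives, of which 54 reached 100 UMIs in neutrophils. Of these 11 were at least 2-fold lower (3.72% of all genes) and 1 was higher (1.57%), with a median log2 ratio of -0.21. The counts in single lists stand against the same shares. The relatives of Ifitm6 were the list with the largest share of lower members, 3 of 4, namely Ifitm1 (-1.16), Ifitm2 (-2.36, 21694 and 5572 UMIs) and Ifitm10 (-4.64, 398 and 20 UMIs), while Ifitm3 was at -0.59. Among prostaglandin and leukotriene genes 1 of 8 was lower, Tbxas1 (-2.64), which encodes thromboxane synthase, and the cyclooxygenase gene Ptgs1 was at -0.45. Among genes of extracellular ATP 2 of 5 were lower, the ATP-gated channel gene P2rx1 (-3.63) and Entpd1 (-1.13), which encodes the ecto-nucleotidase CD39. The other 3 were above 0 but within 2-fold, at 0.89 for Nt5e (1319 and 3210 UMIs), 0.62 for Panx1 and 0.18 for P2rx4, so that the list's median was 0.18. Of the 3 costimulation relatives only Cd86 (-1.87), the other CD28 ligand of its pair, was 2-fold lower.

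Among receptors and targets of BMP and TGF-beta 3 of 15 were 2-fold lower, Tgfbr2 (-1.29), Tgfbr3 (-1.29) and Smad3 (-1.47), a signal transducer of TGF-beta. Bmpr1a, another type I receptor, was higher but within 2-fold (0.93), and Eng, the co-receptor of ALK1, had 4 and 2 UMIs. In the TALE homeobox list Meis1 (-1.02, 70 and 45 UMIs) was lower and Pbx3 (1.20) higher. None of the 8 sialic acid genes with at least 100 UMIs passed 2-fold, and the 3 most abundant were St3gal4 (-0.09), Cmas (-0.11) and St3gal1 (-0.23). Below that floor were St3gal6 (-1.81, 39 and 14 UMIs) and St6gal1 (-3.02, 36 and 5 UMIs), which were not counted. The death-associated kinase relatives Dapk1 (0.35), Dapk3 (0.07) and Stk17b (-0.11) and the tescalcin relative Chp1 (-0.34) also stayed within 2-fold. Ffar2, the only metabolite receptor relative with 100 UMIs, was at -0.69.

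Of the 20 flanking genes with at least 100 UMIs, the nearest on each side of the 10 on the chromosome, 1 was 2-fold lower (3.72% of all genes), Itga5 next to Gpr84 (-1.08, 113 and 70 UMIs), and 0 were 2-fold higher (1.57%). Their median log2 ratio was -0.11, and the highest was 0.71 for Hist1h1a, which lies 562998 bases from Cmah. Dapk2 lies between Ciao2a (-0.09) and Herc1 (-0.22), Tesc between Rfc5 (0.14, 638696 bases away) and Fbxw8 (-0.09), and Cd80 between Adprh (-0.13) and Timmdc1 (-0.07). Both flanking genes of Acvrl1 were lower but within 2-fold, as was Ifitm3 beside Ifitm6 (-0.59). They were Cela1 (-0.92, -1.43 to -0.43), 440601 bases from Acvrl1, and the activin receptor gene Acvr1b (-0.86, -1.01 to -0.71), 28731 bases from it. Gm11342, annotated on the opposite strand inside Cmah, had 695 and 305 UMIs (-1.58), close to the ratio of Cmah itself. Whether the counting used strand is not given in the sources used here, so reads of this pair may not be told apart.

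The genes most like the 10 were sought by the correlation of each gene with the mean standardised profile of the 10 over 20 sums (5 ranges by 2 libraries by 2 hashtags) among 9344 genes. The closest were Efcab14 (Pearson r 0.98, log2 ratio in neutrophils -0.56), 5830428M24Rik (0.98, -1.68), Bank1 (0.97, -2.43), D030055H07Rik (0.97, -1.81) and Tmc6 (0.96, -0.71). The r of the 10 genes themselves ranged from 0.73 for Acvrl1 to 0.93 for Cmah. The sums share libraries and cell ranges, so these r values describe likeness of profile only.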

How the data were processed

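The authors deposited raw UMI counts per feature and barcode, not normalized, made with Cell Ranger 7.1.0 and build mm10 per the submitters' processing notes, from 10x Genomics 3-prime libraries per the labels' protocols. How cells were called is not given in the sources used here. Barcodes with 500 or more genes and under 10% mitochondrial UMIs were kept here. Scrublet's own threshold marked 1 and 0 barcodes and had not worked, so the top 6% of scores per library were left out, an incomplete treatment of doublets. A hashtag was called at 100 UMIs and 5 times the other.

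Leiden clusters (27 at resolution 1, from 2000 variable genes without the 10 genes and their relatives, 30 components and 15 neighbours; scanpy 1.11.5, leidenalg 0.10.2, Python 3.11.15) took names from markers, and libraries were not integrated. A name needed 3 markers detected in 25% of cells and a score leading by 0.25. The maturation ranges also took in 2 unnamed Fcnb-led clusters. Per 10000 UMIs, Retnlg plus Mmp8 of 20 or more made a cell Retnlg-high, else Fcnb of 8 or more Fcnb-high, else 5 cycling genes summing to 5 or more cycling. Counts were summed and given as CPM. Genes with 100 UMIs (20 for members in a range or class) entered counts past 2-fold. On simulated counts for the neutrophil comparison, 97% of 200 genes changed 4-fold were recovered and 1 of 10475 unchanged genes was called. With 1 library per group these rates cannot cover variation between libraries, and the recovery holds for 4-fold changes only.

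Gene positions come from GENCODE M21 (GRCm38), which holds 99.6% of the IDs in the files and may not be the annotation used upstream. Members, lists and rules were chosen with earlier results of these data known. Named are the 10 genes, Kdm6a, relatives past 2-fold or else the 3 most abundant of a list, flanking genes and the 5 genes most alike. Some relatives are named for their role or as genes below the floor of 100 UMIs, chosen after their values were seen. Some relatives are not reported here.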

Additional observations from a re-analysis of the deposited data

How the results depend on the processing

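Each of the 10 genes stayed lower in neutrophils of the library labelled Utx-deleted under all 13 alternatives, 11 planned and 2 added after seeing the data. The count past 2-fold ran from 7 to 9, where 2.59% (after thinning) to 3.93% (with the unnamed Fcnb-led clusters) of all genes tested were. With the same weight for each range no share of all genes was computed. Pknox2 was within 2-fold in 4 of the 13 alternatives and Ptges in 6. The median log2 ratio, -1.69, was -1.51 at resolution 0.5, -1.55 at resolution 2, -1.52 with neutrophils drawn by a per-cell threshold, -1.81 after thinning, -1.57 and -1.55 with hashtag 1 or 2 alone, and -1.50 with the unnamed Fcnb-led clusters added; the cause was not tested. In Fcnb-high cells the ratio of Pknox2 was 0.25 and after thinning -0.19. Thinning brought Pknox2 and Ptges in cycling cells inside 2-fold (-0.58 and -0.84) and Ptges in non-cycling Retnlg-low cells just past it (-1.03). It also moved Tesc in cycling cells from -4.77 to -3.36 and Gpr84 in Fcnb-high cells from -0.78 to -0.28. With a hashtag margin of 20 the 20 ratios between hashtags ran from -0.36 to 0.52, none past 2-fold. Thinned shares of cells with a UMI, lower by construction, kept the order of the libraries for each gene in neutrophils. Leaving out the barcodes shared by both libraries gave 9 genes past 2-fold (3.72% of all genes tested) and a median of -1.69 (-0.039 over all genes tested). No paired analysis was possible because each group is 1 library. Counts of 20 UMIs or fewer, as for Dapk2 and Tesc in small classes, limit ratios outside neutrophils.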
